A study of Mus musculus with 4 samples.

Results

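The Wnt ligands, their Frizzled receptors and the secreted proteins that block them were examined in mouse endothelial cells that had been differentiated from induced pluripotent stem cells (iPSCs, which are made from adult cells by reprogramming factors). The members were every gene whose symbol on the array is a numbered Wnt, Fzd or Sfrp, a Dkk from Dkk1 to Dkk4, or Lrp5, Lrp6, Axin2 or Wif1. They came to 41 of the 18193 genes on the array, measured by 79 probe sets: 19 ligands, 10 receptors, 2 co-receptors, 9 secreted antagonists and Axin2. The control group held iPSC-derived endothelial cells of 2 healthy mice, and the other group those of 2 mice with diet-induced obesity (DIO), with 1 Affymetrix array per mouse. The labels give all mice an age of 24 weeks and all cultures an endothelial cell medium, with trypsin before RNA isolation. The strain, the sex, the diet and its length, and the number of iPSC lines per mouse are not stated there.

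Wnts are lipid-modified secreted proteins. They bind a Frizzled receptor together with the co-receptor Lrp5 or Lrp6, which stops the breakdown of beta-catenin, so that beta-catenin can act with TCF and LEF factors on target genes such as Axin2. Secreted Frizzled-related proteins (Sfrp) and Wif1 bind the ligands, while Dickkopf proteins (Dkk) bind the co-receptors. The pathway is known for directing mesoderm and endothelial differentiation from pluripotent cells and for vessel growth and barrier formation in the brain and retina.

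The values are log2 expression levels per probe set. Where a gene had several probe sets, the brightest on average represents it, and differences are the DIO mean minus the control mean. Over all genes these means had a median of 7.09. Of the members, 10 had a mean above it and 31 did not. Among the members this median only sets which are given in full: levels of different members are not compared. The means of marker genes are also set beside it below, as a rough guide, since levels of different probe sets need not be alike. Their distance from background is not known. A probe set is called dim where its values lie near the low end of the array's scale.

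Marker genes of several cell types were read on each array. The 18 endothelial markers averaged 5.90 in control 1, 5.99 in control 2, 5.84 in DIO 1 and 5.77 in DIO 2, and 4 of them had means above the median of gene means, Esam at 8.87, Cdh5 at 8.76, Egfl7 at 8.70 and Eng at 7.21. At the other end were Tie1 and Emcn, with means of 3.62 and 3.68. The 11 measured simple epithelial markers averaged 11.77 in control 1, 11.91 in control 2, 11.81 in DIO 1 and 11.81 in DIO 2. All 11 had means above the median of gene means, from 8.65 to 14.04. The part of epithelial cells in the values of the members was not tested. The 15 pluripotency markers averaged 9.91 and 8.99 over the control arrays against 10.41 and 9.21 over the DIO arrays, and 14 of them were lower in mouse 2 of both groups. Control 2 stood apart by its epidermal markers: 19 of the 19 measured were highest there, at an average of 11.91 against 7.13 in control 1 and 8.16 and 9.02 in DIO. The 9 endoderm markers averaged 7.48 there, against 5.56 in control 1 and 6.11 and 6.17 in DIO, and 6 of them were highest in control 2. The 3 probe sets for 18S ribosomal RNA, by contrast, were apart between the groups, at averages of 12.60 and 12.65 in control cells against 12.30 and 11.96 in DIO cells; the part of this in the group differences of the members was not tested. In such bulk samples, fewer cells of a type and less RNA per cell cannot be told apart. Results that rest on control 2 are therefore given with and without it.

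No member differed between the groups past the threshold of 0.05 on the adjusted p (limma, Benjamini-Hochberg over all genes), as was true of all 18193 genes, of which 0.0% passed. The count of members with an unadjusted p below 0.05 was 1 higher in DIO, the antagonist Dkk1, where 3.26% of all genes lay. It was 3 lower in DIO, the ligand Wnt9a, the co-receptor Lrp6 and the antagonist Sfrp2, where 3.32% of all genes lay. Each DIO array was above each control for 8 members, against 21.4% of all genes, and below both for 6, against 17.0%. Taking both directions, 14 of 41 members did not overlap between the groups, beside 38.4% of all genes. By this measure, which is not the unadjusted p, the members were not apart more often than the background. The DIO mean was the higher one for 23 members, beside 53.3% of all genes, and the median difference was 0.07 over the members and 0.02 over all genes. This direction did not hold throughout: the median was −0.0049 without control 1, and −0.23 over the 20 members left without the dimmest 40% of genes, where 7 had a higher and 13 a lower DIO mean and the median over all genes was −0.020. With 2 arrays per group the exact 2-sided permutation test of a single gene cannot give a p under 0.333, and the 95% confidence interval of a member's difference extended by a median of 0.48 on each side.

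**Figure D1:**
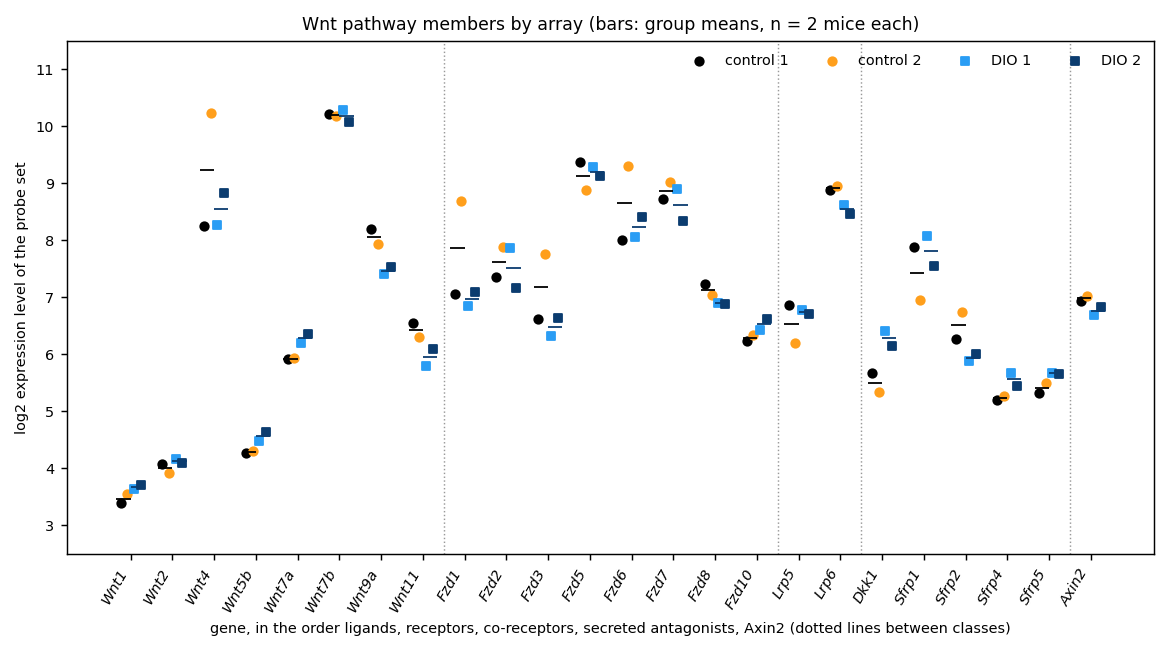
The log2 expression level (y axis) of the 24 members given in full is plotted for each of the 4 arrays, with genes on the x axis by class and short bars for the means of 2 mice per group. Control 2 lies far above the other 3 arrays for Wnt4, Fzd1, Fzd3 and Fzd6, while both DIO arrays lie above both controls for Dkk1 and below both for Wnt9a.

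Among the 19 ligands, 11 had a higher and 8 a lower DIO mean, with a median difference of 0.07 that was −0.0049 without control 1 and −0.021 over the 7 brighter ligands. The groups did not overlap for 4 ligands higher in DIO (Wnt1, Wnt2, Wnt5b and Wnt7a) and for 2 lower in DIO (Wnt9a and Wnt11). These counts stand beside 21.4% and 17.0% of all genes. Wnt9a, a ligand with roles in joint and blood stem cell development, measured 8.19 and 7.93 in control cells against 7.40 and 7.53 in DIO cells. Each DIO array was below each control, and the difference was −0.59 ± 0.16 (SE, n = 2 per group; limma, unadjusted p = 0.018, adjusted p = 0.728). Its other, dim probe set measured 3.75 and 3.44 in control cells against 3.60 and 3.50 in DIO cells, so that averaging the probe sets gave −0.32.

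Wnt11, which acts mainly without beta-catenin and takes part in heart development, measured 6.55 and 6.31 in control cells against 5.80 and 6.10 in DIO cells. Its groups did not overlap, with a difference of −0.48 ± 0.18 (limma, unadjusted p = 0.0538, adjusted p = 0.728). The gap between the 2 DIO mice, 0.30, was larger than that between DIO 2 and control 2. The groups of neither ligand overlapped, so leaving out any single array could not turn the sign. The differences then ran from −0.73 to −0.46 for Wnt9a and −0.63 to −0.33 for Wnt11.

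Wnt7a, a ligand of brain vessel development, gave opposite answers from its probe sets. The brightest measured 5.91 and 5.93 in control cells against 6.19 and 6.36 in DIO cells, a difference of 0.35 ± 0.13 (limma, adjusted p = 0.728). The next measured 6.14 and 6.36 in control cells against 5.83 and 5.74 in DIO cells, a difference of −0.47. In these 2 probe sets the groups did not overlap, in opposite directions, while they overlapped in the remaining, dim one at −0.039. The average over all 3 was −0.05, so no direction can be given for Wnt7a.

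Wnt5b, a relative of Wnt5a, showed the same split. One probe set measured 4.27 and 4.31 in control cells against 4.49 and 4.63 in DIO cells, and the other 4.06 and 3.98 against 3.87 and 3.63. The differences were 0.27 and −0.27, and their average was 0.00. Wnt1 and Wnt2, each measured by 1 dim probe set, differed by 0.20 ± 0.13 and 0.12 ± 0.13, and the levels of both lay between 3.40 and 4.16 on every array.

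Wnt4 was set apart by a single array. This ligand of kidney and reproductive tract development was at 8.24 in control 1, 10.23 in control 2, 8.26 in DIO 1 and 8.83 in DIO 2. Its second probe set ran in the same order, at 6.34, 8.76, 6.63 and 7.18. The group difference of −0.69 ± 0.73 (limma, adjusted p = 0.847) turned to 0.30 without control 2. Control 2 is also the array with the highest epidermal markers, and DIO 2 exceeded DIO 1 in their average as it did for Wnt4; the part of those cells in the Wnt4 values was not tested.

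Wnt7b, which is related to Wnt7a, measured 10.22 and 10.19 in control cells against 10.28 and 10.08 in DIO cells. The 4 arrays lay close together, and the difference of −0.02 ± 0.14 had a 95% confidence interval from −0.40 to 0.36. Of the remaining ligands, Wnt5a, a ligand that acts mainly without beta-catenin, measured 5.32 and 5.95 in control cells against 5.42 and 4.91 in DIO cells. Its difference was −0.47 ± 0.31, and −0.16 without control 2, and 3 of its 4 probe sets had that sign. Wnt3a, used widely to activate beta-catenin signalling, measured 5.94 and 6.36 in control cells against 6.35 and 6.55 in DIO cells, a difference of 0.30 ± 0.20. Wnt6, a ligand made by many embryonic epithelia, measured 6.45 and 7.16 in control cells against 7.21 and 7.05 in DIO cells, a difference of 0.33 ± 0.28 that was −0.03 without control 1. The other ligands, Wnt2b, Wnt3, Wnt8a, Wnt8b, Wnt9b, Wnt10a, Wnt10b and Wnt16, differed by between −0.20 and 0.17, with overlapping groups in each.

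Among the 10 Frizzled receptors, 4 had a higher and 6 a lower DIO mean, with a median difference of −0.18 that became −0.05 without control 2, 0.030 without DIO 2 and −0.058 after quantile normalization. The groups did not overlap for 2 of them, Fzd8 and Fzd10, beside 38.4% of all genes. Fzd8 measured 7.23 and 7.04 in control cells against 6.90 and 6.89 in DIO cells, a difference of −0.24 ± 0.14 (limma, adjusted p = 0.761), and −0.14 without control 1. Fzd10 measured 6.23 and 6.35 in control cells against 6.43 and 6.62 in DIO cells, a difference of 0.24 ± 0.14 (limma, adjusted p = 0.766), and 0.13 when its probe sets were averaged.

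Fzd1, Fzd3 and Fzd6 were each highest in control 2 by a wide margin. Fzd1 was at 7.05 in control 1, 8.68 in control 2, 6.84 in DIO 1 and 7.09 in DIO 2. Its difference of −0.90 ± 0.58 (limma, adjusted p = 0.775) became −0.09 without control 2. Without control 1 it was −1.71, the only member past the threshold in any alternative tried (limma, adjusted p = 0.0330), but control 2 is then the single control array, assumed to vary like the others, so that this p restates its height.

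Fzd6, which orients hair follicles through planar cell polarity, measured 8.01 and 9.30 in control cells against 8.06 and 8.41 in DIO cells. Its difference of −0.42 ± 0.48 turned to 0.23 without control 2, and 1 of its 3 probe sets had the opposite sign at 0.34, with both DIO arrays above both controls. Fzd3, a planar cell polarity receptor of growing axons, measured 6.61 and 7.76 in control cells against 6.32 and 6.64 in DIO cells, a difference of −0.71 ± 0.43 that was −0.13 without control 2. In 3 further Fzd3 probe sets both DIO arrays were below both controls, by −0.22, −0.47 and −0.22, and control 2 stood within 0.07 of control 1 in each. The 2 dimmest Fzd3 probe sets had the opposite sign, at 0.34 and 0.17. The height of control 2 was thus seen in 1 of 6 Fzd3 probe sets, and of Fzd1 in 1 of 2. The other Fzd1 probe set was dim, at 3.52 and 3.58 in control cells against 3.67 and 3.60 in DIO cells. A probe set so near the low end of the scale may fail to show such a height.

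The gap between the 2 control mice was 1 log2 unit or more for 4 members, Wnt4, Fzd1, Fzd3 and Fzd6, beside 6.4% of all genes. No member had such a gap between the 2 DIO mice, beside 1.24% of all genes. Control 2 was the highest of the 4 arrays for 16 of the 41 members, beside 20.9% of all genes, and the lowest for 11, beside 40.9%. Leaving it out turned the sign of 11 members, beside 25.0% of all genes.

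**Figure D2:**
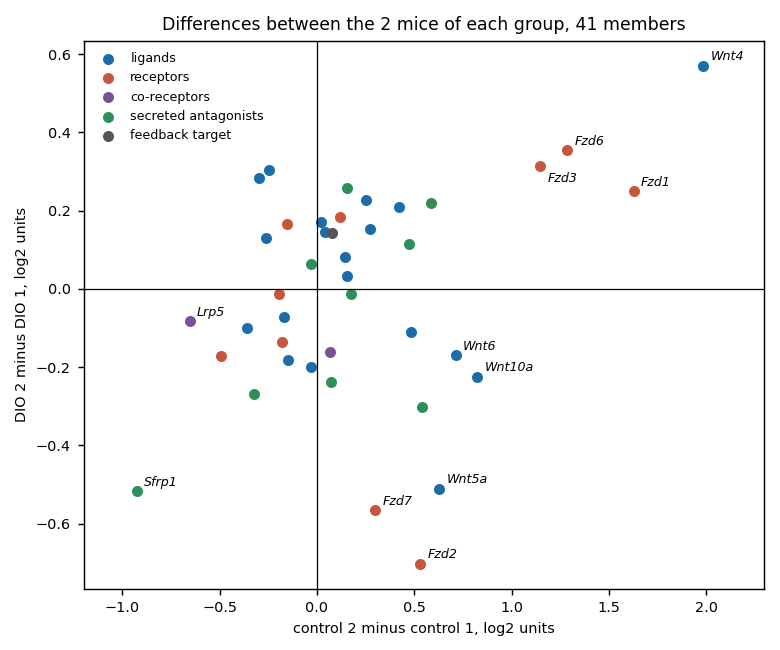
For each of the 41 members the log2 difference between the 2 control mice (x axis) is plotted against that between the 2 DIO mice (y axis), coloured by class. Wnt4, Fzd1, Fzd3 and Fzd6 lie far to the right, at 1.99, 1.63, 1.15 and 1.29, Sfrp1 lies low on both axes, and Fzd2, Fzd7 and Wnt5a were higher in mouse 2 of the controls but lower in mouse 2 of DIO.

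The receptors Fzd2, Fzd5 and Fzd7, all with means above the median of genes, had overlapping groups. Fzd7, the Frizzled best known from pluripotent cells, measured 8.72 and 9.02 in control cells against 8.91 and 8.34 in DIO cells, a difference of −0.25 ± 0.25 that was 0.04 without DIO 2. Fzd5, needed for yolk sac vessels in the mouse, measured 9.38 and 8.89 in control cells against 9.29 and 9.12 in DIO cells. It differed by 0.07 ± 0.22 in total and by −0.17 without control 2. Fzd2 measured 7.36 and 7.89 in control cells against 7.87 and 7.17 in DIO cells, and its difference of −0.11 ± 0.33 was 0.16 without control 2 and 0.24 without DIO 2. No direction can be read for these receptors. Fzd4, the receptor of retinal and brain endothelium, measured 5.18 and 5.0 in control cells against 5.23 and 5.09 in DIO cells. Its difference was 0.07 ± 0.14 (95% confidence interval −0.32 to 0.46). Fzd9 differed by 0.10 ± 0.14.

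Of the 2 co-receptors, Lrp6 was lower in both DIO arrays and Lrp5 overlapped. Lrp6, the co-receptor with the broader role in embryos, measured 8.89 and 8.96 in control cells against 8.62 and 8.46 in DIO cells. Its difference was −0.38 ± 0.13 (limma, unadjusted p = 0.0432, adjusted p = 0.728). The controls lay within 0.07 of each other and both DIO arrays were below them. The second probe set gave the same order, with 7.63 and 7.70 in control cells against 7.55 and 7.45 in DIO cells, a difference of −0.16. Leaving out any single array left Lrp6 between −0.46 and −0.30. Lrp5, which is required for retinal vessels and bone mass, measured 6.86 and 6.20 in control cells against 6.78 and 6.70 in DIO cells, a difference of 0.21 ± 0.26 that turned to −0.11 without control 2.

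Of the 9 secreted antagonists, 7 had a higher DIO mean and 2 a lower one, with a median difference of 0.15. The median was 0.037 without DIO 2, 0.060 without control 1 and −0.091 over the 2 antagonists left without the dimmest genes. The groups did not overlap for 3 higher in DIO, Dkk1, Sfrp4 and Sfrp5, and for 1 lower, Sfrp2. Of all genes, 21.4% and 17.0% were apart in these directions. Dkk1, which blocks the co-receptors Lrp5 and Lrp6 and is itself a target gene of beta-catenin, measured 5.67 and 5.34 in control cells against 6.41 and 6.15 in DIO cells. Its difference of 0.78 ± 0.19 was the largest upward one among the members (limma, unadjusted p = 0.0135, adjusted p = 0.728). The second, dim probe set also had both DIO arrays above both controls, at 3.14 and 2.89 against 3.35 and 3.57. Without any single array the Dkk1 difference lay between 0.61 and 0.94.

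Sfrp5, known from adipose tissue as an antagonist of Wnt5a, measured 5.33 and 5.50 in control cells against 5.67 and 5.66 in DIO cells. Its second probe set measured 5.02 and 5.05 in control cells against 5.30 and 5.30 in DIO cells. The groups did not overlap in either, by differences of 0.25 ± 0.13 (limma, adjusted p = 0.750) and 0.27. Sfrp4, with 1 probe set, measured 5.20 and 5.27 in control cells against 5.68 and 5.44 in DIO cells, a difference of 0.33 ± 0.15 (limma, adjusted p = 0.730) and 0.21 without DIO 1.

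Sfrp2, which is made by mesenchymal cells, went the other way, with 6.27 and 6.74 in control cells against 5.88 and 6.0 in DIO cells. Each DIO array was below each control, with a difference of −0.57 ± 0.21 (limma, unadjusted p = 0.0493, adjusted p = 0.728). Without control 2, its highest array, it was −0.33. The average of 15 fibroblast and mesenchymal markers was also highest in control 2, although only 7 of them were highest there, with 6.87 and 7.60 over the control arrays against 6.94 and 7.18 over the DIO arrays; their part in the Sfrp2 values was not tested.

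Sfrp1, which binds Wnts outside the cell, was lower in mouse 2 than in mouse 1 of each group. It measured 7.88 and 6.96 in control cells against 8.07 and 7.55 in DIO cells, with overlapping groups. All 5 of its probe sets had that order within both groups, and all had a higher DIO mean, by 0.23 to 0.43. In 4 of the 5 the groups overlapped, and in the other, at 6.08 and 5.93 in control cells against 6.39 and 6.33 in DIO cells, each DIO array was above each control, by a difference of 0.35 (limma with every probe set tested, unadjusted p = 0.0433, adjusted p = 0.536). The difference of the brightest was 0.39 ± 0.39 (limma, adjusted p = 0.840), and −0.08 without control 2. The pluripotency markers given above were lower in mouse 2 of each group as well, and their part in the Sfrp1 values was not tested.

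Dkk2, Dkk3, Dkk4 and Wif1 had overlapping groups. Dkk3, a divergent Dickkopf that does not bind the co-receptors like its relatives, measured 5.42 and 5.57 in control cells against 5.51 and 5.76 in DIO cells, a difference of 0.14 ± 0.16, with a second probe set at −0.10. Dkk2, Dkk4 and Wif1 were read below 4.50 on every array and differed by 0.15, 0.04 and −0.17.

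**Figure D3:**
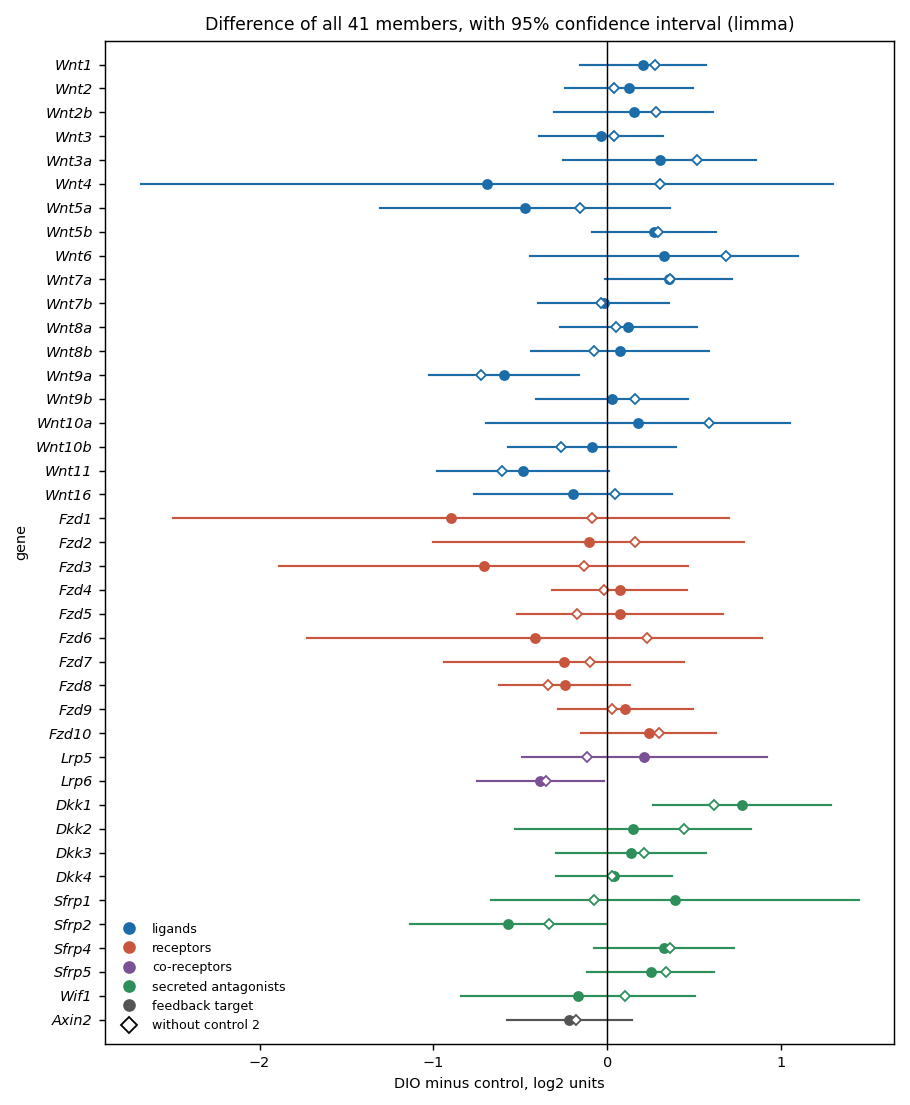
The DIO minus control difference in log2 units (x axis) is shown for all 41 members (y axis, coloured by class), with filled points for the 4 arrays, lines for the 95% confidence interval from limma, and open diamonds for the difference without control 2. The widest intervals belong to Wnt4, Fzd1, Fzd6 and Fzd3, and the intervals of Wnt9a, Lrp6, Dkk1 and Sfrp2 do not include 0.

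Axin2, the scaffold of the beta-catenin destruction complex whose own transcription beta-catenin raises, measured 6.94 and 7.02 in control cells against 6.69 and 6.83 in DIO cells. Both DIO arrays were below both controls. The difference was −0.22 ± 0.13 (limma, adjusted p = 0.767), and −0.09 after quantile normalization. The second, dim probe set measured 4.11 and 3.89 in control cells against 3.75 and 4.10 in DIO cells, where the groups overlapped.

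Of the 41 members, 17 had 1 probe set and 24 had several. All probe sets of a gene had the same sign for 14 of these 24, and 10 had at least 1 with the opposite sign. The members whose groups did not overlap and whose probe sets all had 1 sign were Wnt9a, Fzd8, Fzd10, Lrp6, Dkk1, Sfrp5 and Axin2, beside those with a single probe set. The second probe sets of Wnt9a, Fzd8, Fzd10 and Axin2 were dim, with overlapping groups and differences of −0.05, −0.08, 0.03 and −0.07. Only in Lrp6, Dkk1 and Sfrp5 were the groups apart in the second probe set as well. The share of all genes with such agreement was not counted. Over the 79 probe sets, 16 had both DIO arrays above both controls and 13 had both below, beside 22.3% and 19.0% of all 45037 probe sets, and the smallest adjusted p was 0.531 with every probe set of the array tested.

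**Figure D4:**
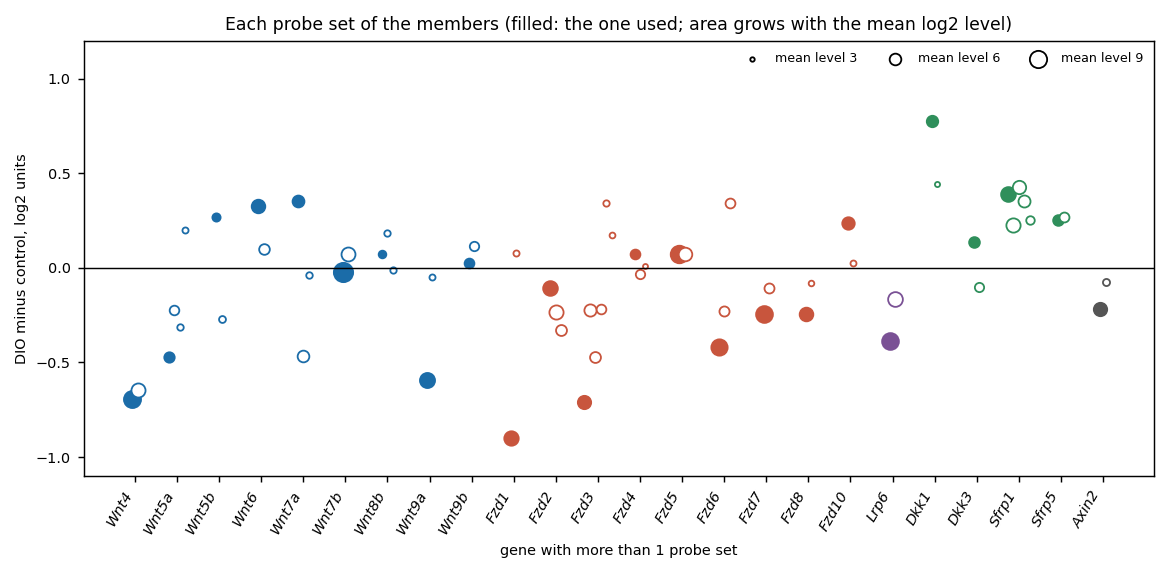
The DIO minus control difference in log2 units (y axis) of each probe set is shown for the 24 members with more than 1 (x axis), coloured by class, filled for the probe set used, with the area growing with the mean level. The probe sets of Wnt7a and Wnt5b lie on both sides of 0, while all 5 of Sfrp1 and both of Dkk1 lie above it.

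The start-site sequences are shown for the 4 members with the largest differences among those whose groups did not overlap, Dkk1, Wnt9a, Sfrp2 and Wnt11. RefSeq windows of 250 bases before to 50 after the start (GRCm38.p6) were matched by symbol for 27 of the 41 members. Capitals mark the TCF/LEF core motif in the forms CTTTGA and CTTTGT, searched on both strands; the forms can share a base where they meet on opposite strands.
Dkk1 (chr19:30549447-30549746, minus strand): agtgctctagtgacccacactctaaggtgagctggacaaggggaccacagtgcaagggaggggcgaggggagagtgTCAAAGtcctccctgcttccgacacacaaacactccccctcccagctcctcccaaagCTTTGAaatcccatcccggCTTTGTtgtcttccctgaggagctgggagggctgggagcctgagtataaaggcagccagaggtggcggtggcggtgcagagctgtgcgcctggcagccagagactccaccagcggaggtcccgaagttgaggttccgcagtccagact
Wnt9a (chr11:59306680-59306979, plus strand): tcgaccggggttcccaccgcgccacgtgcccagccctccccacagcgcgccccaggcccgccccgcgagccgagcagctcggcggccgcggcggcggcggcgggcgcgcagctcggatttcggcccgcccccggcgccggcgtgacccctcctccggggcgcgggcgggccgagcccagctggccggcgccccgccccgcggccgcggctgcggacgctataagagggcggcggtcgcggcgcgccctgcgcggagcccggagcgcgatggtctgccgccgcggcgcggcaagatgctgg
Sfrp2 (chr3:83766071-83766370, plus strand): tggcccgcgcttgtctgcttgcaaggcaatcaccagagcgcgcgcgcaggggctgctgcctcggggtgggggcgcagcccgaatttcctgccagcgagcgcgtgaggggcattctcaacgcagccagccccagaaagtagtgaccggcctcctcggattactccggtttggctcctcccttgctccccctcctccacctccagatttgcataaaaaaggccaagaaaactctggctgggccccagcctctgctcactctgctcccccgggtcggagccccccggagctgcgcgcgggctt
Wnt11 (chr7:98834862-98835161, plus strand, 1 of its 2 windows): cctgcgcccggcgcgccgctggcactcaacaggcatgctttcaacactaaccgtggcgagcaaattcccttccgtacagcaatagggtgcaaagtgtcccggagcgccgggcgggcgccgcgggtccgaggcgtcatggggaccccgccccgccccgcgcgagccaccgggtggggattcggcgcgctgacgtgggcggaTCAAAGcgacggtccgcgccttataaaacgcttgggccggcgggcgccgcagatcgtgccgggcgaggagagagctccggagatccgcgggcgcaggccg

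The Dkk1 window held 3 matches, their first bases at −174, −117 and −98 from the start, and the Wnt11 window shown held 1, its first base at −50, while its other window held 0. The windows of Wnt9a and Sfrp2 held 0. A match was present in 8 of the 30 windows of the members, or 26.7%, beside 31.2% of all 32851 windows. The GC content was 60.7% in the Dkk1 window, 83.3% in that of Wnt9a, 66.0% in that of Sfrp2 and 71.3% in that of Wnt11, with a median of 68.3% over the windows of the members and 52.7% over all windows. The matches describe letters in these windows only.

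The rest of the pathway was read from 8 lists holding 106 genes, of which 103 were measured; Kremen2, T and Tcf7 were not analysed here. None passed the threshold (limma, 0 of 103). The unadjusted p was below 0.05 for 2 higher and 2 lower in DIO, beside 3.26% and 3.32% of all genes (limma). For 19 of the 103 each DIO array was above each control, and for 23 below, beside 21.4% and 17.0% of all genes. The median difference was −0.04.

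Rnf43 had the smallest p among the pathway genes. This membrane ubiquitin ligase removes Frizzled receptors from the cell surface and is itself a target gene of beta-catenin. It measured 7.18 and 7.0 in control cells against 6.16 and 6.11 in DIO cells. Its groups were far apart beside the spread of the mice, and the difference of −0.95 ± 0.14 still did not pass (limma, unadjusted p = 0.00192, adjusted p = 0.728). Znrf3, its close relative with the same role, measured 7.73 and 7.87 in control cells against 7.40 and 7.58 in DIO cells, a difference of −0.31 ± 0.14. In this list of receptor turnover and other antagonists, 3 of 10 measured genes had a higher and 7 a lower DIO mean, with a median of −0.12 that was 0.03 without control 2. Sost, an antagonist from bone that binds Lrp5 and Lrp6, was dim and differed by 0.29 ± 0.16.

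Of the 24 genes of the destruction complex and Dishevelled list, 9 had a higher and 15 a lower DIO mean, with a median of −0.08 that was −0.14 without control 2 and −0.019 after quantile normalization. Each DIO array was below each control for 9 and above for 4, beside 17.0% and 21.4% of all genes. Gsk3b, the kinase that marks beta-catenin for breakdown, measured 10.94 and 10.99 in control cells against 10.74 and 10.39 in DIO cells, a difference of −0.40 ± 0.17. Fbxw11, a subunit of the ubiquitin ligase that takes up marked beta-catenin, differed by −0.33 ± 0.12, and the casein kinase Csnk1d by −0.35 ± 0.14. None passed (limma, adjusted p = 0.728 for each).

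Of the 15 measured TCF/LEF factors and co-regulators, 8 had a higher and 7 a lower DIO mean, with a median of 0.02 that became −0.053 once control 2 was left out, −0.017 once DIO 2 was, and −0.022 when probe sets were averaged. Ctbp2, a co-repressor, measured 11.05 and 11.26 in control cells against 11.80 and 11.56 in DIO cells, a difference of 0.52 ± 0.16. Tle1, a Groucho-type co-repressor, measured 8.04 and 8.39 in control cells against 7.76 and 7.43 in DIO cells, a difference of −0.62 ± 0.21. The groups of both were apart, in opposite directions, and neither passed (limma, adjusted p = 0.728 for each). Tcf7l2 differed by 0.69 ± 0.35, and by 0.17 when the probe sets were averaged.

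Of the 26 measured target genes, 16 had a higher and 10 a lower DIO mean, with a median of 0.10 that was 0.039 with averaged probe sets and −0.15 over the 15 targets left without the dimmest genes. Besides Rnf43 and Znrf3, the smallest p was that of Ccn5, a secreted matricellular protein, with 3.98 and 4.26 in control cells against 4.51 and 4.97 in DIO cells, a difference of 0.62 ± 0.22 (limma, adjusted p = 0.728). For 7 target genes each DIO array was above each control, and for 3 below, beside 21.4% and 17.0% of all genes.

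The other receptors had 5 higher and 6 lower DIO means and a median of −0.0034, which lay between −0.17 without DIO 1 and 0.087 without control 2. Ror2, a receptor for Wnt5a, measured 7.02 and 6.93 in control cells against 6.72 and 6.50 in DIO cells, a difference of −0.37 ± 0.15 (limma, adjusted p = 0.728), and −0.20 with its probe sets averaged. Adgra2, which brain endothelium needs to respond to Wnt7 ligands, differed by 0.20 ± 0.14, and Tspan12, a partner of Fzd4, by −0.41 ± 0.30. Of the 13 planar cell polarity genes, 3 had a higher and 10 a lower DIO mean, with a median of −0.10 that was 0.02 after quantile normalization. Scrib, Daam2 and Prickle2 differed by −0.27 ± 0.16, −0.21 ± 0.13 and −0.27 ± 0.18. The 6 ligand secretion genes had a median of −0.05, which was 0.19 without control 2, and groups that overlapped in each, with Notum, which strips the lipid from Wnts, at −0.15 ± 0.21, the glypican Gpc3 at −0.11 ± 0.39 and Vps35 at 0.03 ± 0.13. The 5 R-spondins and other activators had a median of 0.06, which became −0.14 once control 2 was left out and −0.13 when probe sets were averaged, with Rspo2 at 0.17 ± 0.13, Rspo1 at −0.24 ± 0.23 and the Fzd4 ligand Ndp at −0.13 ± 0.16.

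**Figure D5:**
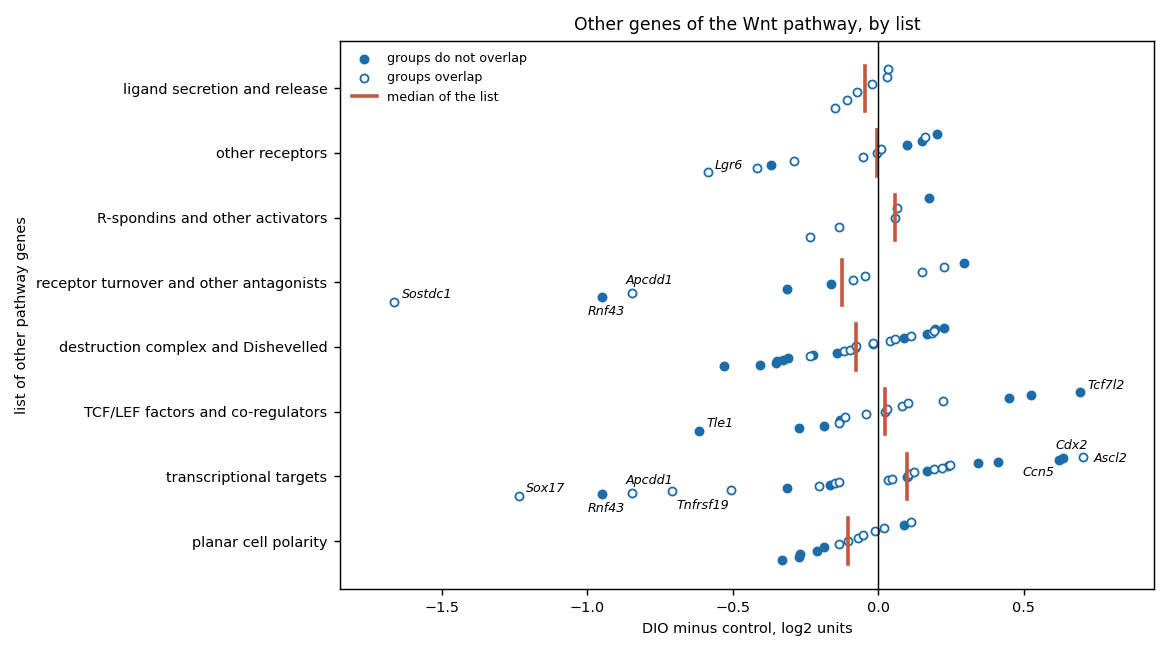
The DIO minus control difference in log2 units (x axis) is plotted for each measured gene of the 8 lists of other pathway genes (y axis), filled where the groups did not overlap and open where they did, with a bar at the median of the list. The list medians lie between −0.12 and 0.10, and Rnf43 lies at −0.95.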

How the data were processed

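The arrays measured RNA of iPSC-derived endothelial cells from 2 control and 2 DIO mice, and the labels' titles set the groups. The authors deposited log2 expression levels per probe set in a single table, and how they were background-corrected, normalized and summarised is not given in the sources used here. That the scale is log2 was read from the values, which reach 14.56, above the natural log of the largest 16-bit signal, 11.09. Of 45101 probe sets, 64 manufacturer controls were left out, and names came from the platform annotation, where 34945 probe sets had 1 symbol, 932 several and 9160 were not listed. DIO was compared with control over 18193 genes in limma 3.58.1 (lmFit and eBayes, 2-sided, R 4.3.3), with Benjamini-Hochberg adjustment over all genes and no filter on dim probe sets. The fit was also run on simulated data with planted differences, and the outcome is not reported here. The number of arrays limits the precision, and nothing says that the samples' spread is free of technical parts, which the p-values would then include.

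Alternatives changed the scaling (quantile, or array medians set equal), the genes (the dimmest 40% left out), the probe sets (averaged per gene, or each tested alone), the variance model (eBayes with trend and robust), the design (mouse number as a block) and the arrays (each left out in turn). Full values by array were given for Axin2, Lrp5 and Lrp6, for members whose groups did not overlap, whose mice of 1 group differed by 1 log2 unit or more, or whose mean was above the median of genes, and of each pathway list for up to 3 genes with the smallest p. Values of Wnt3a, Wnt5a, Wnt6, Fzd4, Fzd9 and Dkk3, which fall outside this rule, were added after their values were seen. The members and lists were chosen with earlier results of these data known.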

Additional observations from a re-analysis of the deposited data

How the results depend on the processing

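No setting on all 4 arrays gave a gene past the adjusted threshold, and leaving out single arrays gave 0 to 483 genes, 0 to 1 members and 0 to 5 other pathway genes, all of them without control 1. The genes with an unadjusted p below 0.05, 1198 in the comparison as reported, were 607 without the dimmest genes, 4184 with every probe set tested, and 171 to 3689 with an array left out; quantile normalization split them into 772 higher and 473 lower, against 594 and 604. The members counted higher in this way, 1 as reported, were 2 after centring, 2 after quantile normalization, 0 without the dimmest genes (where 20 members were tested) and 0 to 4 with an array left out. Those counted lower, 3 as reported, were 1 under each of these and under the trended and robust eBayes, and 0 to 8 with an array left out. By the same p, 721 of all genes were higher and 502 lower after centring, and 216 and 391 without the dimmest genes. Under the trended and robust eBayes these were 682 and 528. The largest lower count of members and the largest count over all genes both came without control 1. Control 2 is then the only control array, so nothing is concluded from these counts. The median difference of the members was −0.23 without the dimmest genes, that of the antagonists −0.091 there, and that of Axin2 −0.093 after quantile normalization. With an array left out the median ran from −0.26 to 0.030 for the receptors, 0.037 to 0.21 for the antagonists, −0.17 to 0.087 for other receptors, −0.14 to 0.15 for R-spondins, −0.23 to 0.025 for receptor turnover, −0.14 to −0.052 for the destruction complex, −0.053 to 0.069 for TCF/LEF factors and −0.21 to −0.077 for planar cell polarity. The list medians were also −0.13 for R-spondins and 0.039 for targets with averaged probe sets, −0.31 for receptor turnover and −0.15 for targets without the dimmest genes, and −0.019 for the destruction complex and 0.015 for planar cell polarity after quantile normalization. Where no cause is named, it was not tested. Of 64 genes (the members, the pathway genes given by list and Cdx2), 37 had 1 sign in every alternative. The block, the trended and robust eBayes, the test of every probe set and leaving out dim genes cannot change a gene's difference. Where the groups did not overlap, leaving out an array cannot turn its sign either. Averaged probe sets turned Wnt5b to −0.00077, Wnt7a to −0.051, Wnt7b to 0.027, Vps35 to −0.13 and Daam2 to 0.11, centring turned Wnt7b to 0.0074, and quantile normalization turned Wnt7b to 0.035, Fzd2 to 0.0012 and Dkk4 to −0.011. With an array left out, signs turned for Wnt3 (−0.11 to 0.041), Wnt4 (−1.69 to 0.30), Wnt6 (−0.031 to 0.68), Wnt7b (−0.12 to 0.079), Wnt8b (−0.076 to 0.22), Wnt9b (−0.11 to 0.16), Wnt10a (−0.24 to 0.59), Wnt10b (−0.27 to 0.091), Wnt16 (−0.44 to 0.044), Fzd2 (−0.46 to 0.24), Fzd4 (−0.019 to 0.16), Fzd5 (−0.17 to 0.32), Fzd6 (−1.06 to 0.23), Fzd7 (−0.53 to 0.037), Lrp5 (−0.11 to 0.54), Sfrp1 (−0.075 to 0.85), Dkk2 (−0.15 to 0.44), Wif1 (−0.44 to 0.10), Notum (−0.40 to 0.10), Gpc3 (−0.62 to 0.40), Vps35 (−0.023 to 0.081), Rspo1 (−0.51 to 0.035) and Ndp (−0.29 to 0.018). The mouse numbers name different animals in each group and were not taken as pairs; over genes, mouse 1 minus mouse 2 correlated at 0.33 between the groups. With the mouse number as a replicate block, 0 genes passed and 982 had an unadjusted p below 0.05 (limma). In this balanced layout the block leaves each difference as it was, so that no sign could turn. Probe sets near the low end of the scale limit the dim members.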

Other observations

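Several pathway genes outside the members were set apart in control 2 and are named after their values were seen. Sostdc1, a secreted antagonist of Wnt and BMP signalling, was at 4.30 in control 1, 10.42 in control 2, 5.74 in DIO 1 and 5.65 in DIO 2. Sox17, a transcription factor of endoderm and arterial endothelium, was at 5.86, 8.22, 5.98 and 5.63 in the same order. Apcdd1, a membrane inhibitor of Wnt signalling in hair follicles, was at 6.98, 9.24, 7.29 and 7.25, and Tnfrsf19, a stem cell receptor and Wnt target, at 7.10, 8.43, 7.11 and 7.0. Lgr6, an R-spondin receptor of skin stem cells, was at 4.08, 5.71, 4.33 and 4.29. In each of the 5 control 2 lay farther above the other 3 arrays than these lay from each other. The other 3 were not alike in Sostdc1, where control 1, at 4.30, was below both DIO arrays, at 5.74 and 5.65. Without control 2 the group difference turned to 1.397 for Sostdc1, 0.285 for Apcdd1 and 0.230 for Lgr6. It shrank to −0.060 for Sox17 and −0.039 for Tnfrsf19. These values are those of the brightest probe set. When probe sets were averaged, the group difference of Apcdd1 went from −0.84 to −0.46 and that of Tnfrsf19 from −0.71 to −0.14. That of Lgr6 went from −0.59 to −0.22, that of Sox17 from −1.24 to −1.08, and that of Sostdc1 stayed at −1.66. With all 4 arrays the adjusted p of the 5 genes between the groups ran from 0.778 to 0.874 (limma). They passed the threshold when control 1 was left out, but control 2 is then the only control array, assumed to vary like the DIO pair, so that this restates its distance from the others. The endoderm marker Afp was apart in the same way, at 4.29 in control 1, 9.62 in control 2 and 5.83 and 5.72 in DIO; Sox17 is on that marker list too, and its part in these values was not tested.

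In Tcf7l2 it was control 1 that lay apart. This factor was at 7.48 in control 1, 8.43 in control 2 and 8.63 and 8.66 in DIO. Cdx2, a transcription factor of trophoblast and hindgut and a Wnt target, measured 7.59 and 7.05 in control cells against 8.24 and 7.67 in DIO cells, a difference of 0.64 ± 0.30. The trophoblast markers averaged 8.19 and 7.81 over the control arrays against 8.32 and 8.61 over the DIO arrays over 8 genes, a list that holds Cdx2 itself.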
